A study of Homo sapiens with 32 samples.

Results

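The 10 genes described here handle zinc: the transporters SLC30A1, SLC30A5, SLC39A10 and SLC39A14, the zinc sensor MTF1, and the metallothioneins MT1E, MT1F, MT1G, MT1X and MT2A. They were taken by symbol from the 18980 coding genes listed for each library, and all 10 were listed. They were selected on their role in zinc handling and on CPM and fitted changes already seen in these 20 libraries, the SLC30A1 change between 2 h and 6 h among them, so their values and fitted changes are a description and were not read as tests. Expression was measured by RNA-seq of total RNA in RH4, a human cell line established from alveolar rhabdomyosarcoma, a tumour of muscle-like cells. The 4 compounds A485, dCBP, JQAD and IHK-44 were each given at 2 doses, 100 nM and 1000 nM, and RNA was taken after 2 h and after 6 h, so there were 16 treated libraries. The controls were the solvent DMSO and NT, an abbreviation that the labels leave unexplained, each with a library at 2 h and at 6 h. The series describes the compounds jointly as inhibitors or degraders of CBP and p300, a pair of related histone acetyltransferases that serve as transcriptional coactivators. The labels do not say which compound is of which kind, while A485 is known as an inhibitor of their catalytic domain. Each of the 20 libraries was the only one of its condition, so the spread in every fit below includes differences between doses, times or the 2 controls. All libraries came from 1 cell line, and nothing in the labels says that they were separate cultures.

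Zinc is kept within narrow limits inside cells. Transporters of the SLC30 family (ZnT) move zinc out of the cytosol, across the plasma membrane or into organelles, and those of the SLC39 family (ZIP) move it into the cytosol. Metallothioneins are small cysteine-rich proteins that bind zinc and other metals, and MTF1 is the transcription factor that senses free zinc and binds metal response elements in the promoters of metallothionein genes and of SLC30A1. SLC30A1 is the main zinc exporter of the plasma membrane, and its transcript is a widely used readout of zinc inside the cell.

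The libraries held between 13466631 and 16799327 expected counts (reads assigned to a gene by an estimation model) over the coding genes. Markers of the line were detected in all libraries, with a median of 363 counts scaled to the library total (CPM) for MYOD1, 205 for MYOG and 757 for FGFR4. However, MYOD1 ranged from 27.2 to 747 CPM and MYCN from 1.02 to 73.2. Against DMSO, the fits below called 4 of the 7 markers lower for dCBP and 3 for IHK-44 (23.7% and 16.9% of all genes called). EPCAM and KRT5, of epithelium and keratinocytes, had 0 counts in all libraries, PTPRC, of blood cells, reached 1 count, ALB, of liver, 14 counts, and PECAM1, of endothelium, ran from 0.066 to 0.708 CPM. At 6 h the median gene itself lay above DMSO in CPM, by 0.16 to 0.22 on the log2 scale in the dCBP and IHK-44 libraries and by 0.03 and 0.14 in the A485 libraries of 100 nM and 1000 nM. Values near that size at 6 h are therefore also given relative to the median gene.

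The promoters of 4 of the genes are shown because they hold the core of the metal response element, the site MTF1 binds, in different numbers. RefSeq promoter windows (GRCh38.p14, 250 bases before the transcription start to 50 after it) were read for 6 of the 10 genes. MT1E, MT1F and MT1G had no window, and SLC39A14 was left out of this search. The motif searched was its core, TGCACNC or TGCGCNC, on both strands, and none of the matches overlapped another. Capitals mark each match, which reads as the reverse complement where it lies on the other strand.
SLC30A1: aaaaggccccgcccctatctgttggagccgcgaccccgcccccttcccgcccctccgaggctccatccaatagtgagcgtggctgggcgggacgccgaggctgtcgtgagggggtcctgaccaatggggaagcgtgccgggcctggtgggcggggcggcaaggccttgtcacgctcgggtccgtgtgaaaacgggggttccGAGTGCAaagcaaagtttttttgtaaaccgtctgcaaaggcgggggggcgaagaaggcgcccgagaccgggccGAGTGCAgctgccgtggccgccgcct
MT2A: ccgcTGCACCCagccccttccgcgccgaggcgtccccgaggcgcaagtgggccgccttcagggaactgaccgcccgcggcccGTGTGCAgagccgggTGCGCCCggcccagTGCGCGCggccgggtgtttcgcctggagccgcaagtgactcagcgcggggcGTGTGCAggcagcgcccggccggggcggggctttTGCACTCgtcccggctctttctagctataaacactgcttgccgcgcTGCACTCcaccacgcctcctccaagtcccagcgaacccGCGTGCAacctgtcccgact
MT1X: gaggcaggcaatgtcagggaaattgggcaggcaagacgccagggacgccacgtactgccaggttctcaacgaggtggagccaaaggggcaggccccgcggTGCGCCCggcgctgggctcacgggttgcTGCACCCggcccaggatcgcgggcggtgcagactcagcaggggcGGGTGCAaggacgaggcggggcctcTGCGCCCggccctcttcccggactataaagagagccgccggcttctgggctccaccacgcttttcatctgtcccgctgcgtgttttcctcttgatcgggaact
SLC39A10: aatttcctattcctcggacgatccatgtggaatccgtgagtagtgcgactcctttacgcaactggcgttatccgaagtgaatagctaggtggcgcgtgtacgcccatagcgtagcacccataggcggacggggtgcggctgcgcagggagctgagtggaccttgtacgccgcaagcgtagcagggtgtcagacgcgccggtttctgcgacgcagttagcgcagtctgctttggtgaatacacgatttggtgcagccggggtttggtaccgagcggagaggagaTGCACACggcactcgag
The SLC30A1 window (chr1:211579112-211579411, minus strand) held 2 matches, both TGCACTC on the reverse strand, at positions -49 and 24 from the start. The MT2A window (chr16:56608334-56608633, plus strand) held 8 matches, and the MT1X window (chr16:56682220-56682519, plus strand) held 4. Of 35116 windows, 8.6% held at least 2 matches, 0.601% at least 4 and 0.02% at least 8. In the windows of genes expressed at a mean of 1 CPM or more, 11.7% held at least 2 and 0.739% at least 4. SLC39A10 had 2 windows, of which the first held 0 matches and the second, shown (chr2:195656976-195657275, plus strand), held 1. At least 1 match was held by 29.6% of all windows and 37.4% of those of the expressed genes. The windows of SLC30A5 and MTF1 held 0 matches, which says only that these letters are not in those windows. The title of the series concerns CpG islands, and the windows of SLC30A1, MT2A and MT1X held 30, 37 and 26 CpG dinucleotides, beside a median of 25 in windows of genes expressed at a mean of 1 CPM or more.

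Of the 10 genes, 7 reached a mean level of 1 CPM and entered the fits. Levels between genes were compared per length, in TPM (transcript abundance scaled by length). MT2A was the most abundant, with a median of 266.9 TPM, followed by SLC39A14 at 34.5, SLC30A5 at 15.5, MT1X at 13.5, SLC30A1 at 12.2, MTF1 at 9.12 and SLC39A10 at 8.55 TPM. The middle genes of that order overlapped in range: SLC30A1 ran from 5.98 to 19.9 TPM and MT1X from 8.57 to 17.4. MT1E, MT1F and MT1G were listed at 0 counts in all 20 libraries, where 3 counts would be 0.179 to 0.223 CPM.

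In A485, SLC30A1 was low at 6 h and near the controls at 2 h, and no other compound had it low at either time. At 2 h it stood at 91.1 CPM in DMSO and 95.6 in NT, and the 8 treated libraries lay between 84.2 and 93.6. At 6 h it stood at 74.8 CPM in DMSO and 69.6 in NT. The A485 libraries of 6 h held 29.2 CPM at 100 nM and 35.2 at 1000 nM, the lowest values of all 20 libraries. The dCBP libraries of 6 h held 83.1 CPM at 100 nM and 98.4 at 1000 nM, and those of IHK-44 held 100.4 and 107.5. JQAD gave 71.5 and 72.1 CPM, between DMSO and NT. With exact Poisson 95% intervals, which cover counting error alone, the A485 libraries (26.5 to 32.1 and 32.4 to 38.3 CPM) lay apart from all others of that time. The intervals of NT (65.5 to 73.9), JQAD at 100 nM (67.0 to 76.1), JQAD at 1000 nM (67.9 to 76.4) and DMSO (70.5 to 79.3) overlapped each other, and dCBP at 100 nM (78.4 to 87.95) overlapped DMSO.

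**Figure D1:**
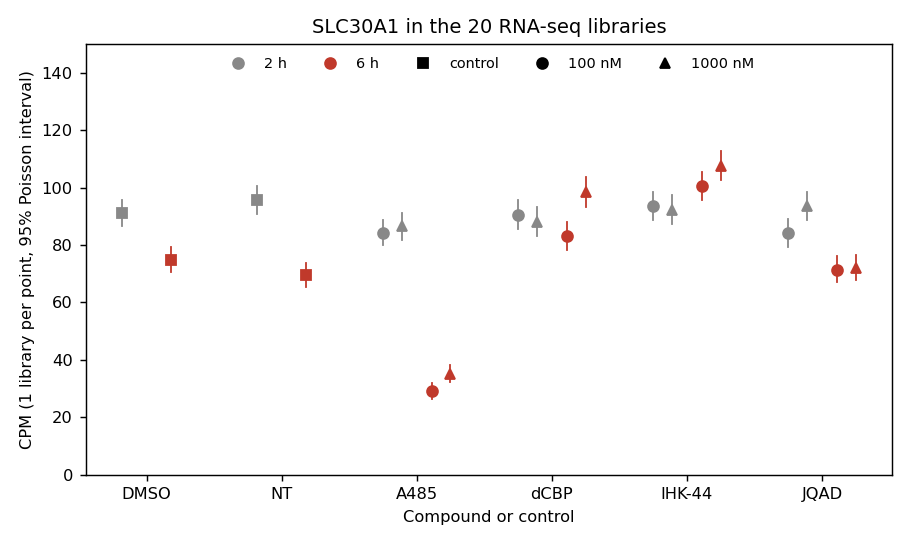
SLC30A1 in CPM (vertical axis) for each control and compound (horizontal axis), 1 library per point with its exact Poisson 95% interval; grey is 2 h, red is 6 h, squares are controls, circles 100 nM and triangles 1000 nM. The red A485 points lie at 29.2 and 35.2 CPM, below the other 6 h libraries, which lie between 69.6 and 107.5 CPM.

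As ratios to DMSO of the same time on the log2(CPM + 1) scale, A485 at 6 h gave -1.33 at 100 nM and -1.06 at 1000 nM, and at 2 h -0.11 and -0.07. SLC30A1 was the 1 gene of the 7 at least 2-fold lower in each A485 library of 6 h, where 0.312% of 12174 genes were at 100 nM and 3.87% at 1000 nM. Relative to the median gene the 6 h values were -1.36 and -1.21. On the TPM scale, which depends on genes outside the coding list, the unadjusted ratios were -0.89 and -0.66, lower but short of 2-fold, and -1.22 and -1.09 relative to the median gene. For IHK-44 at 6 h the log2 ratio was 0.42 at 100 nM and 0.52 at 1000 nM, and for dCBP 0.15 and 0.39. Relative to the median gene these became 0.24 and 0.30 for IHK-44 and -0.01 and 0.18 for dCBP, so dCBP at 100 nM was level with the median gene. On the unadjusted TPM scale IHK-44 at 100 nM (-0.02) and dCBP at 100 nM (-0.48) were on the lower side.

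Over time within a treatment, the ratio of 6 h to 2 h in CPM was 0.346 for A485 at 100 nM and 0.408 at 1000 nM. It was 0.821 in DMSO, 0.729 in NT, and 0.849 and 0.771 for JQAD at 100 nM and 1000 nM. The dCBP ratios were 0.917 and 1.12, and the IHK-44 ratios 1.07 and 1.17. The 6 h library was thus lower in the controls, A485 and JQAD, and higher in both IHK-44 pairs and 1 of the 2 dCBP pairs. In the edgeR fit of time dependence, which compares the 6 h minus 2 h change of a compound with that of DMSO and NT pooled, SLC30A1 had a log2 difference of -1.08 ± 0.13 (SE) for A485, 0.41 ± 0.13 for IHK-44, 0.28 ± 0.13 for dCBP and 0.04 ± 0.13 for JQAD. Of the 7 genes, SLC30A1 alone had a Benjamini-Hochberg adjusted p under 0.05 for A485 (0.00754% of 13260 genes, which is SLC30A1 itself) and for IHK-44 (9.89% of genes), and 0 of 7 did for dCBP (9.06%) or JQAD (0%; 222 genes at an unadjusted p under 0.05). The gene was picked with this contrast known, so nothing is read from those calls. That SLC30A1 was the 1 gene called for A485 depended on the set of libraries. Other genes were called beside it without either A485 library of 6 h, and also without the DMSO library of 2 h. The A485 call was lost without the DMSO library of 6 h, and the IHK-44 call without any 1 of 13 libraries. With DMSO alone as the control, 0 genes were called for any compound.

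Averaged over both times, the log2 change of SLC30A1 against DMSO was -0.63 ± 0.25 for A485, 0.16 ± 0.25 for IHK-44, 0.02 ± 0.25 for dCBP and -0.04 ± 0.25 for JQAD, none past an adjusted p of 0.05. Between the A485 doses, 1000 nM minus 100 nM was 0.08 ± 0.12 on the log2 scale over both times. Of the 12174 genes expressed at a mean of 1 CPM or more, 31 were at least 2-fold lower in both A485 libraries of 6 h. SLC30A1 was the 1 of these 31 that was under 2-fold lower, and above DMSO in CPM, in all 4 dCBP and IHK-44 libraries of 6 h. This count was made after its values were seen and rests on the A485 fall for which it was picked, so nothing is read from it. On the unadjusted TPM scale SLC30A1 was short of 2-fold lower in A485 and below DMSO in dCBP and IHK-44 at 100 nM.

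SLC30A5, which loads zinc into the secretory pathway, was high at 6 h in several treatments. DMSO held 45.1 CPM at 2 h and 54.3 at 6 h, and NT 44.3 and 50.7. The treated libraries of 2 h lay between 46.2 and 50.5 CPM. At 6 h the values at 100 nM and 1000 nM were 58.4 and 72.2 CPM for A485, 60.8 and 76.8 for dCBP, 69.4 and 74.8 for IHK-44, and 51.4 and 48.2 for JQAD. All 6 libraries of A485, dCBP and IHK-44 at 6 h were above both controls, and the 1000 nM library was the higher of each pair, while JQAD was below DMSO. Relative to the median gene, the log2 ratio of SLC30A5 to DMSO at 100 nM was 0.17 for IHK-44, 0.07 for A485 and -0.0003 for dCBP, which was level with the median gene, and at 1000 nM it was 0.24, 0.26 and 0.28. The fitted change against DMSO over both times was 0.16 ± 0.11 for IHK-44, 0.12 ± 0.11 for A485 and 0.11 ± 0.11 for dCBP.

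The importer SLC39A10, a plasma membrane ZIP, ran against SLC30A1. DMSO held 49.9 CPM at 2 h and 46.8 at 6 h, and NT 45.3 and 50.5. A485 at 6 h held the highest values, 65.6 CPM at 100 nM and 56.8 at 1000 nM, after 42.5 and 42.3 at 2 h. dCBP gave 43.8 and 32.9 CPM at 2 h and 27.9 and 38.8 at 6 h, and IHK-44 gave 41.5 and 41.6 at 2 h and 39.3 and 38.5 at 6 h. All 8 dCBP and IHK-44 libraries were below the controls, and JQAD, at 42.1 to 48.7 CPM, overlapped them. The fitted change against DMSO was -0.54 ± 0.17 for dCBP, -0.38 ± 0.17 for IHK-44 and 0.02 ± 0.18 for A485. The dCBP call (adjusted p = 0.035) was lost without any 1 of 5 libraries, among them both DMSO libraries.

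SLC39A14 imports zinc, iron and manganese. It stood at 156 CPM in DMSO and 145 in NT at 2 h, and at 174 and 176 at 6 h. At 6 h dCBP gave 241 CPM at 100 nM and 248 at 1000 nM, IHK-44 203 and 237, A485 180 and 203, and JQAD 159 and 168. The 6 libraries of dCBP, IHK-44 and A485 were above both controls of 6 h and those of JQAD below. Relative to the median gene the log2 ratio of SLC39A14 to DMSO at 100 nM and 1000 nM was 0.30 and 0.30 for dCBP, 0.04 and 0.22 for IHK-44, and 0.01 and 0.07 for A485. At 2 h the treated libraries, at 143 to 168 CPM, surrounded the controls. The fitted change against DMSO was 0.18 ± 0.08 for dCBP and 0.07 ± 0.08 for IHK-44, and dCBP exceeded JQAD by 0.28 ± 0.07.

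MTF1 was higher from 2 h on. Controls held 65.5 CPM (DMSO) and 68.6 (NT) at 2 h and 70.5 in both at 6 h. At 2 h the values at 100 nM and 1000 nM were 75.8 and 102 CPM for A485, 81.4 and 91.0 for IHK-44, and 86.7 and 85.1 for dCBP. At 6 h A485 gave 86.3 and 89.6 CPM, IHK-44 gave 90.1 and 94.9, and dCBP gave 96.2 and 93.9. All 12 libraries of these compounds were above all 4 controls, and the JQAD libraries, at 65.3 to 72.6 CPM, overlapped them. Relative to the median gene the 6 h log2 ratios of MTF1 to DMSO for these compounds were between 0.17 and 0.28. The fitted changes against DMSO were 0.31 ± 0.09 for A485, 0.30 ± 0.09 for dCBP, 0.28 ± 0.09 for IHK-44 and 0.02 ± 0.09 for JQAD on the log2 scale. In the A485 libraries of 6 h MTF1 was above and SLC30A1 below the controls, while in those of IHK-44 and dCBP both were above them in CPM.

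**Figure D2:**
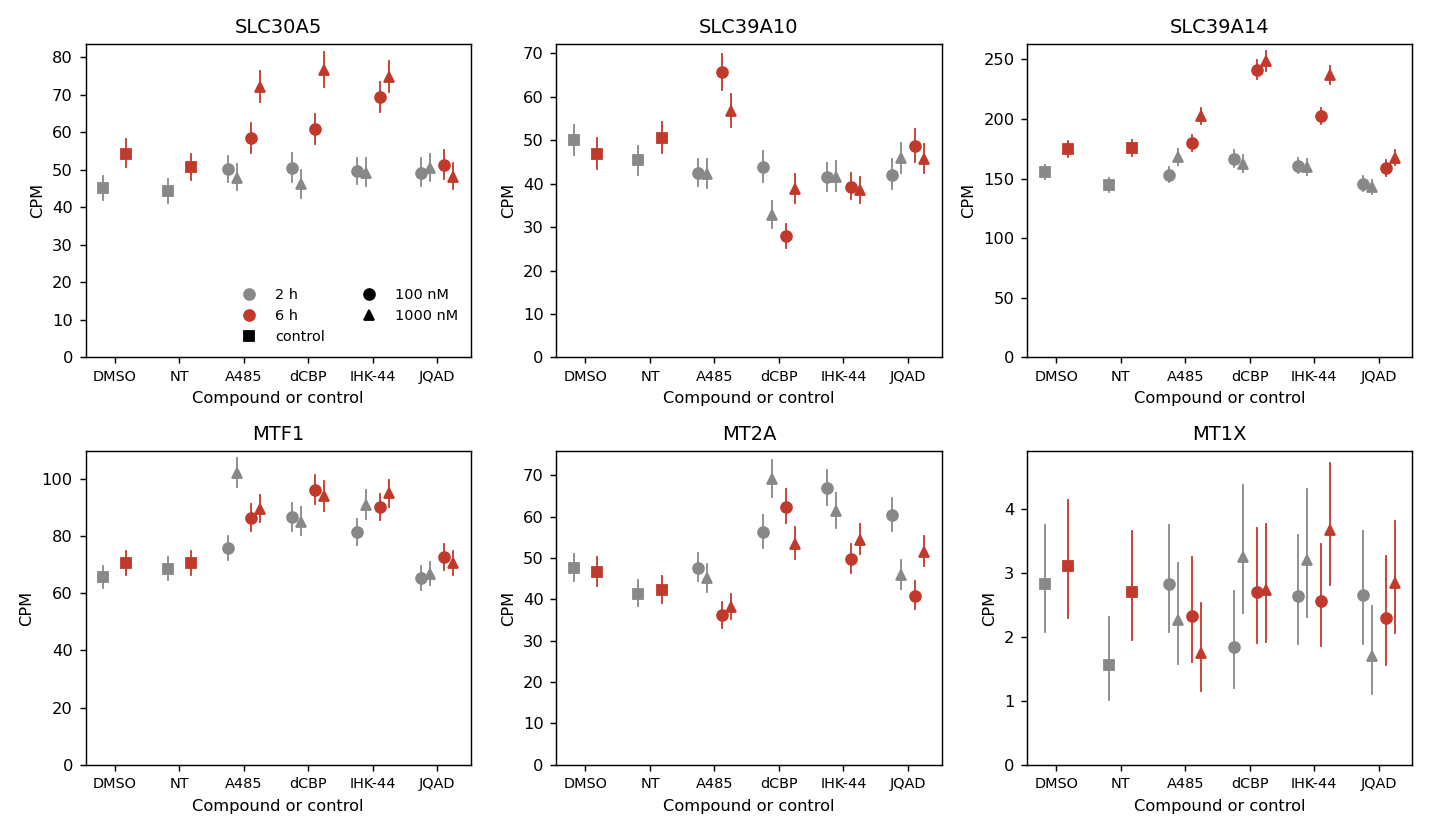
CPM (vertical axes, from 0) of the other 6 expressed genes by control or compound (horizontal axes), 1 library per point with its exact Poisson 95% interval; grey is 2 h, red is 6 h, squares are controls, circles 100 nM and triangles 1000 nM. MTF1 is above the controls in all 12 libraries of A485, dCBP and IHK-44, and SLC39A10 at 6 h is highest in A485, at 65.6 and 56.8 CPM.

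Against DMSO over both times, 0 of the 7 genes were called for A485 (0.271% of all genes), 2 for dCBP (MTF1 higher and SLC39A10 lower; 23.7% of genes), 1 for IHK-44 (MTF1 higher; 16.9%), and 0 for JQAD (0%; 143 genes at an unadjusted p under 0.05) and for NT (0%; 104 genes). The 7 genes had a median log2 change of 0.02 in A485, 0.11 in dCBP, 0.16 in IHK-44 and -0.04 for JQAD, beside 0.01, 0.05, 0.04 and -0.0022 over all 13260 genes. The MTF1 call was lost without either DMSO library for dCBP, and without any 1 of 7 libraries for IHK-44. Between doses, 0 of 7 were called for A485 (0.907%), IHK-44 (0.109%), dCBP (0%; 142 genes at an unadjusted p under 0.05) or JQAD (0%; 251 genes). Between the controls of 6 h and 2 h, 0 of 7 were called (0.0754%), with SLC30A1 at -0.37 ± 0.09.

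Between compounds at the same doses and times, 6 pairs were compared with p adjusted over all genes. MT2A was the 1 gene of 7 called for A485 against dCBP (0.724% of genes), at -0.50 ± 0.11. The mean MT2A log2 ratio to DMSO of the 4 A485 libraries minus that of the 4 dCBP libraries was -0.52, and -0.18 once the median ratio of 254 short transcripts was subtracted in each library. For A485 against IHK-44, 0 of 7 were called (0.882%). MTF1 was called in each of the 3 comparisons with JQAD, at 0.29 ± 0.07 for A485 (1 of 7; 4.91%), 0.28 ± 0.07 for dCBP (3 of 7, with SLC39A10 and SLC39A14; 35.3%) and 0.26 ± 0.07 for IHK-44 (1 of 7; 32.5%). For dCBP against IHK-44, 0 of 7 were called (0%; 883 genes at an unadjusted p under 0.05, and 1 gene called by DESeq2). SLC30A1 differed by -0.79 ± 0.21 between A485 and IHK-44 and by -0.66 ± 0.21 between A485 and dCBP, with adjusted p of 0.082 and 0.12 over both times.

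Among the metallothioneins, MT2A and MT1X were expressed. Of 12 metallothionein genes listed, 8 had 0 counts in all libraries, and 2 reached a mean of 1 CPM. These genes are near-identical copies, and an estimated count can shift between copies, so the level of a single copy is uncertain. The expected counts of MT2A and MT1X were whole numbers in 20 of 20 libraries. The sum over the family was fitted beside MT2A. Its log2 change against DMSO was -0.26 ± 0.14 for A485, 0.22 ± 0.14 for dCBP, 0.17 ± 0.14 for IHK-44 and 0.05 ± 0.14 for JQAD, and none had an adjusted p under 0.05.

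MT2A held 47.6 CPM in DMSO and 41.3 in NT at 2 h, and 46.6 and 42.2 at 6 h. The A485 libraries held 47.7 CPM at 100 nM and 45.1 at 1000 nM at 2 h, and 36.2 and 38.2 at 6 h, the lowest 2 values of all. dCBP gave 56.3 and 69.2 CPM at 2 h and 62.4 and 53.5 at 6 h, and IHK-44 gave 66.9 and 61.3 at 2 h and 49.8 and 54.4 at 6 h. All 8 of these libraries were above the 4 controls. JQAD gave 60.4 and 45.9 at 2 h and 40.9 and 51.5 at 6 h, on both sides of the controls. The lowest MT2A levels thus fell in the same A485 libraries as the lowest SLC30A1 levels. MT1X ran from 1.56 to 3.67 CPM, and DMSO (2.82 CPM from 47 counts, interval 2.07 to 3.75) overlapped in its interval with NT (1.56 CPM from 25 counts, 1.01 to 2.31) at 2 h. The 16 treated libraries of MT1X lay between 1.69 and 3.67 CPM and overlapped the controls.

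Other short transcripts moved in the same direction as MT2A in dCBP and IHK-44. The 254 genes with a transcript under 800 bases and a mean of at least 10 CPM had a median log2 ratio to DMSO of 0.38 in dCBP at 1000 nM and 2 h, where MT2A had 0.53, and of 0.47 in dCBP at 100 nM and 6 h, where MT2A had 0.41. The short-transcript median and MT2A were opposite in sign in A485 at 1000 nM and 6 h (0.07 and -0.28) and in NT at 6 h (0.03 and -0.14). In A485 at 100 nM and 6 h both were negative (-0.13 and -0.36). With that median subtracted, MT2A at 6 h was at -0.23 and -0.35 in A485 (100 nM and 1000 nM), -0.05 and -0.11 in dCBP and -0.24 and -0.20 in IHK-44. At 2 h it was at 0.08 and 0.15 in dCBP, 0.20 and 0.07 in IHK-44, and -0.07 and 0.00 in A485 (100 nM and 1000 nM). NT, a control, was at -0.18 at 2 h and -0.16 at 6 h. MT2A of dCBP and IHK-44 was therefore above the short transcripts' median at 2 h and below it at 6 h, and the part of transcript length in it was not tested.

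**Figure D3:**
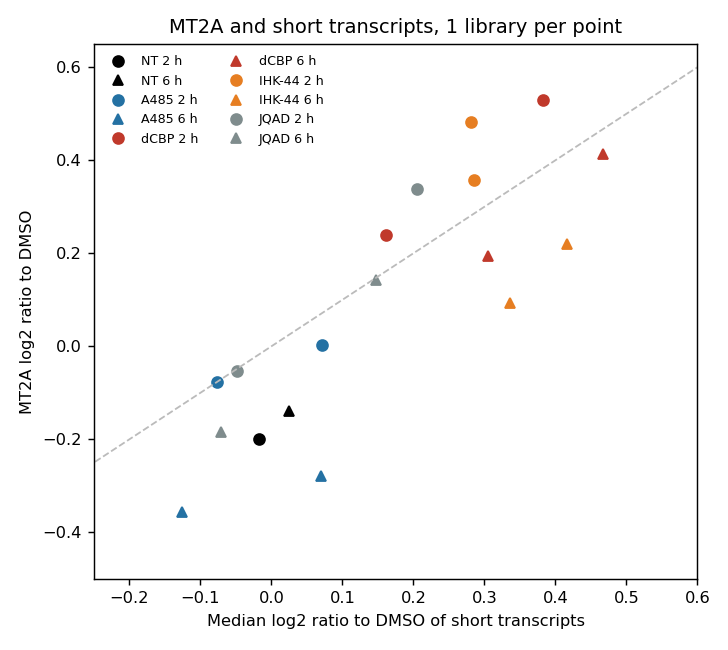
Log2 ratio to the time-matched DMSO library for MT2A (vertical axis) and for the median of 254 short transcripts (horizontal axis), 1 library per point; circles are 2 h, triangles 6 h, colours the compound or NT, and the dashed line marks equality. The blue A485 triangles lie lowest, at -0.28 and -0.36, and MT2A of dCBP and IHK-44 at 6 h lies under the line.

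Over the 20 libraries the genes most like SLC30A1 by Pearson's r of log2(CPM + 1) included QDPR (0.78), P2RX4 (0.78), EIPR1 (0.77) and PLD6 (0.77). MT2A ranked 116 of 12173, with r = 0.61, and SLC39A10 was among the most opposite, with r = -0.69. Chosen after its value was seen, the most opposite gene of all was TXNRD1 (-0.88), thioredoxin reductase, followed by GCLM (-0.82), a subunit of the enzyme that makes the glutathione precursor. TXNRD1 held 168 CPM in DMSO at 6 h and 263 in A485 at 100 nM and 179 at 1000 nM, and GCLM held 38.3, 73.0 and 68.4. In dCBP and IHK-44 at 6 h, TXNRD1 lay at 120 to 142 CPM, below DMSO, and GCLM at 33.6 to 40.9, on both sides of it. The genes most like MT2A included RANBP1 (0.92), IMP3 (0.91), MIF (0.91) and RPL13 (0.90). The libraries share compounds, times and controls, so these r values describe the 20 libraries and carry no test.

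The other zinc transporters and metallothioneins were tested as genes outside the chosen 10, and 14 of 27 passed the filter on low counts. SLC30A4, which fills vesicles with zinc, rose by 1.10 ± 0.25 on the log2 scale for dCBP (edgeR adjusted p = 0.0084) and by 1.09 ± 0.25 for IHK-44 (0.012). It held 12.6 CPM in DMSO at 6 h, 31.7 and 36.9 in dCBP at 100 nM and 1000 nM, 31.0 and 38.2 in IHK-44, 17.9 and 31.9 in A485, and 12.0 and 13.9 in JQAD. SLC30A3, the transporter known for loading synaptic vesicles, rose by 1.17 ± 0.36 for dCBP (adjusted p = 0.030), with 2.58 CPM in DMSO at 6 h and 10.8 and 8.11 in dCBP. For SLC30A3 at 6 h IHK-44 gave 5.24 and 6.80 CPM, A485 2.52 and 4.61, and JQAD 1.92 and 1.42. SLC39A8, an importer of zinc, manganese and cadmium, fell by 0.50 ± 0.12 for dCBP (adjusted p = 0.0099) and by 0.36 ± 0.12 for IHK-44 (0.046). SLC39A8 held 81.9 CPM in DMSO at 6 h, the highest value of the 20 libraries, whose median was 68.7 CPM. At 6 h it held 47.2 and 61.6 CPM in dCBP and 59.0 and 64.2 in IHK-44. Its fall differed between 2 h and 6 h for both compounds (-0.54 ± 0.14 and -0.49 ± 0.14, edgeR adjusted p = 0.028 and 0.039). Those calls were lost without any 1 of 7 libraries for dCBP and any 1 of 16 for IHK-44.

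So 3 of 14 were called for dCBP, where 23.7% of all genes were, and 2 of 14 for IHK-44, where 16.9% were. For A485, 0 of 14 were called by edgeR (0.271% of all genes) and by DESeq2, and 2 had an unadjusted p under 0.05. For JQAD and NT 0 of 14 were called (0% of all genes for each), with 0 at an unadjusted p under 0.05. The SLC30A4 and SLC39A8 calls of dCBP and the SLC30A4 call of IHK-44 were lost without the DMSO library of 6 h, the SLC30A3 call without any 1 of 4 libraries, and the SLC39A8 call of IHK-44 without any 1 of 9. The SLC39A8 call of IHK-44 was also lost with library sizes in place of TMM scaling (-0.24 ± 0.11, adjusted p = 0.10). Against JQAD, 5 of 14 were called for dCBP (35.3% of all genes), the same 3 genes plus SLC39A3 (0.45 ± 0.14) and SLC39A7 (0.20 ± 0.08), and 4 for IHK-44 (32.5%), including SLC30A3 (1.21 ± 0.30) and SLC39A9 (0.23 ± 0.08). These 2 sets of contrasts share the JQAD libraries.

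**Figure D4:**
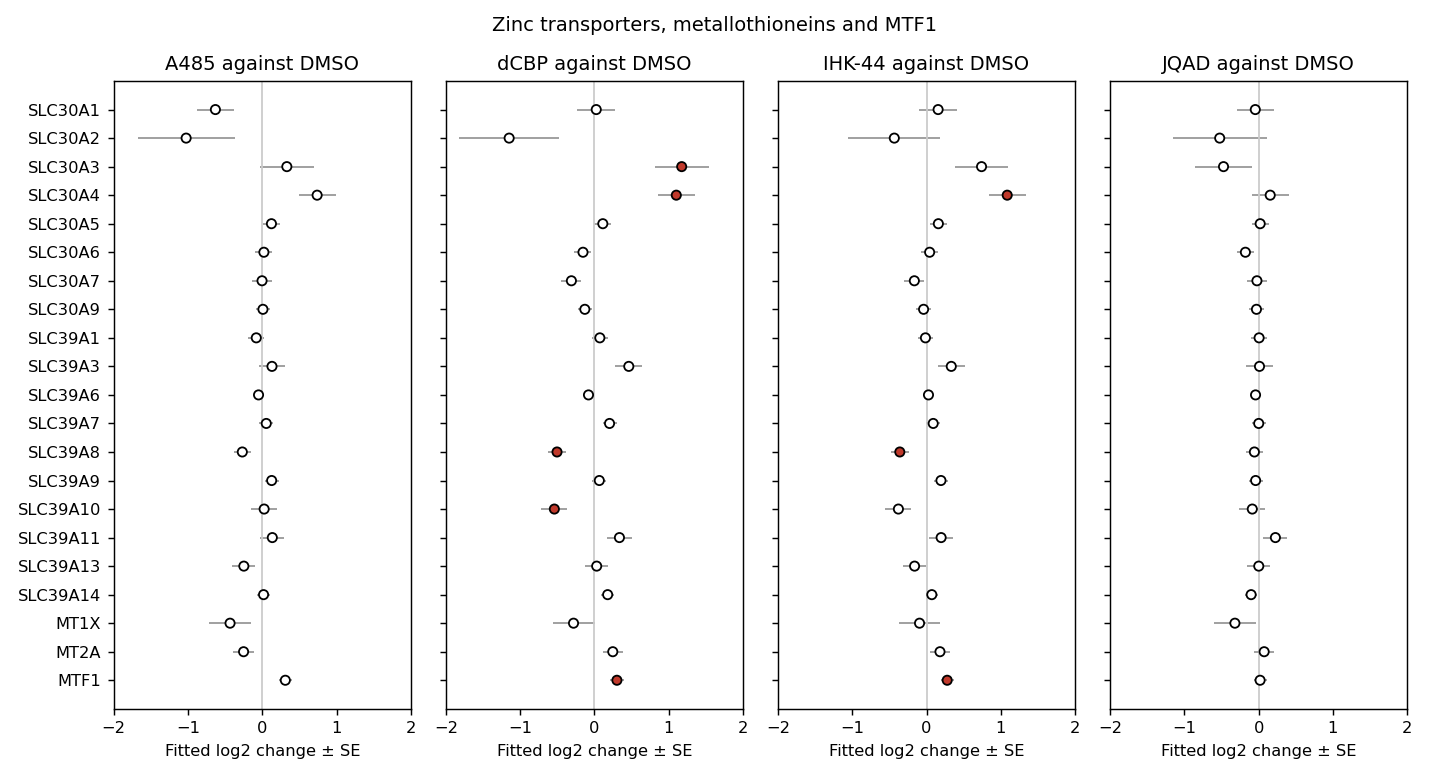
Fitted log2 change against DMSO over both times, with its standard error (horizontal axes), for the 21 zinc transporters, metallothioneins and MTF1 that passed the filter (vertical axis), 1 panel per compound; red points have an adjusted p under 0.05. SLC30A4 lies near 1.1 for dCBP and IHK-44, SLC39A8 lies below 0 for both, and SLC30A1 lies at -0.63 for A485.

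**Figure D5:**
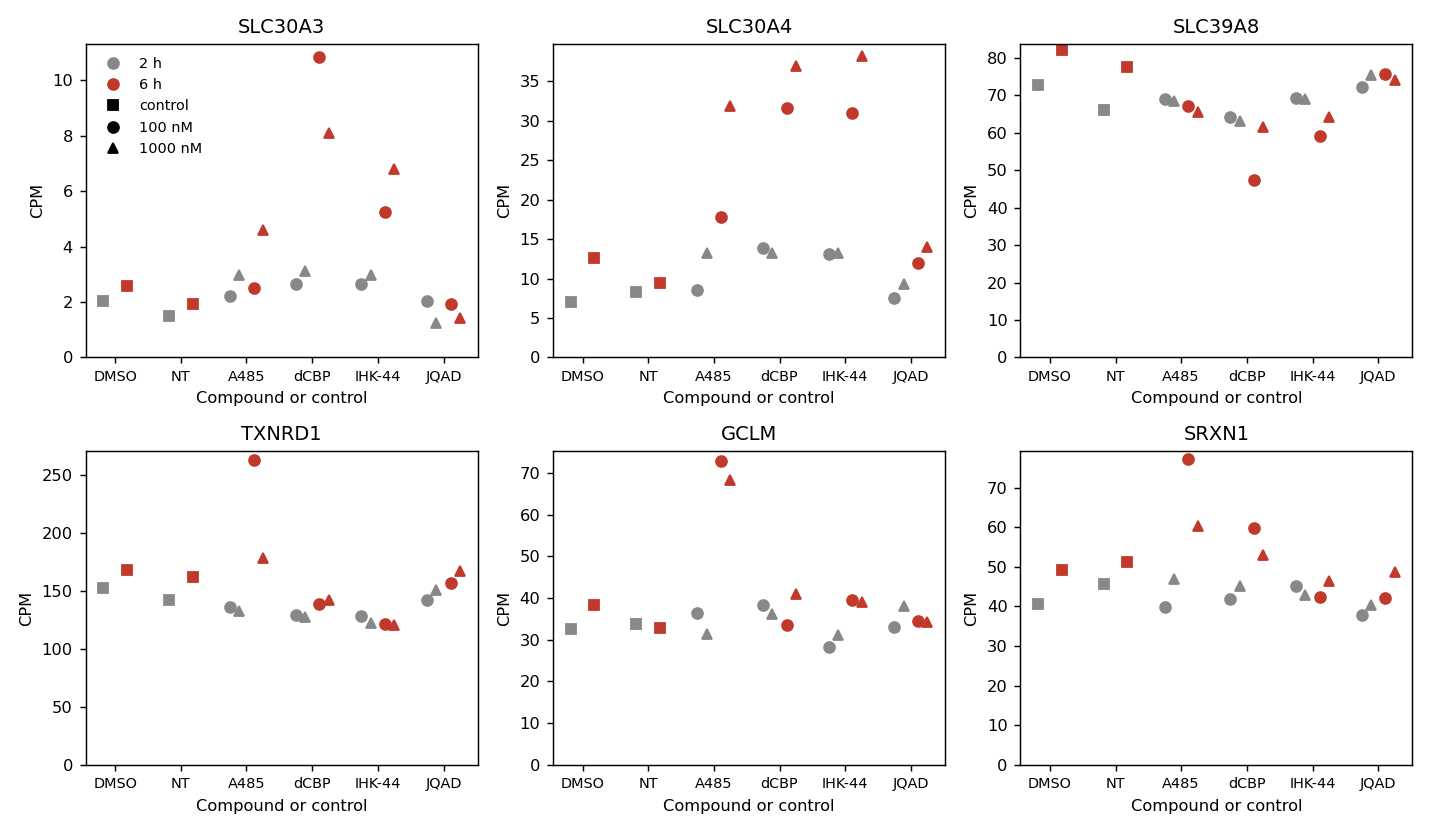
CPM (vertical axes, from 0) of SLC30A3, SLC30A4, SLC39A8, TXNRD1, GCLM and SRXN1 by control or compound (horizontal axes), 1 library per point; grey is 2 h, red is 6 h, squares are controls, circles 100 nM and triangles 1000 nM. TXNRD1 and GCLM at 6 h are highest in A485, at 263 and 73.0 CPM with 100 nM, and SLC30A4 at 6 h is near 31 to 38 CPM in dCBP and IHK-44.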

How the data were processed

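Of the 32 samples of the series, 20 RNA-seq libraries were used; 11 samples of ChIP-seq and 1 of ChRO-seq were not analysed here. The files give expected counts, CPM and TPM deposited by the authors for coding genes only, per the file headers; 88.2% of the expected counts were whole within 0.005. The deposited CPM sums to the same total over the coding genes of each library, and the deposited TPM is scaled over all genes the authors quantified. The submitters' processing notes name STAR 2.5.3a, RSEM 1.3.3 and the builds hg38 and mm10 without a role for each. The deposited length column (another value, in bases) was used to pick short transcripts.

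The 10 genes and all gene lists were chosen with earlier results of these data known. Expected counts were rounded and fitted with edgeR 4.0.16 (R 4.3.3; quasi-likelihood test, TMM scaling, filterByExpr) over all genes, with Benjamini-Hochberg adjusted p-values under 0.05 called. The compound fit had a level for DMSO, NT and each compound and a time term (13 residual degrees of freedom over 13260 genes). The fit of time dependence had 2 libraries in each compound and time, DMSO and NT being pooled (10 degrees of freedom), and the dose fit blocked on compound by time (4 degrees of freedom over 12895 genes). Ratios of single libraries were on the log2(CPM + 1) scale, which understates changes of low genes, for the 12174 genes expressed at a mean of 1 CPM or more, and had no test. Alternatives were DESeq2 1.42.0, limma 3.58.1 on log2(CPM + 1), library sizes alone, no filter, other controls, TPM, a pseudocount of 0.1, 1.5-fold, no block, and each library left out. In simulated data 200 genes had a log2 change of 1. Of these, 94.5% were recovered for A485 against DMSO, 32% for time dependence of A485 and 85% for dose of A485. The unchanged genes called there numbered 11, 3 and 13. The rates describe the simulated data alone, and the share of real changes recovered by the fits to the 20 libraries was not tested.

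Named beyond the 10 genes were the SLC30 and SLC39 genes called, and of all lists at most the 4 largest falls and 4 largest rises by the mean of the dCBP and IHK-44 log2 changes among genes called against DMSO, plus the 5 genes most like SLC30A1 and the 5 most like MT2A. Some of these are not reported here.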

Additional observations from a re-analysis of the deposited data

Results flagged for a closer look

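The change between 2 h and 6 h differed from that of the pooled controls for 5 genes under the naming rule, in the edgeR fit of time dependence with adjusted p under 0.05. Over all 13260 genes that fit called 9.06% for dCBP, 9.89% for IHK-44 and 0.00754% for A485. SLC30A1 had a log2 difference of -1.0835 for A485 and 0.4107 for IHK-44; it was chosen with this contrast known. SLC39A8 had -0.5362 for dCBP and -0.4863 for IHK-44. TSC22D3 had -1.03 for dCBP and -1.0951 for IHK-44. HSPA1B had 1.1436 for dCBP and 1.0112 for IHK-44, and its near-identical copy HSPA1A shares reads with it. The HSPA1B calls were lost without any 1 of 4 libraries for dCBP and any 1 of 7 for IHK-44. SLC40A1 had 1.3682 for dCBP, a call lost without any 1 of 7 libraries.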

How the results depend on the processing

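Each condition had 1 library, so calls depend on libraries that differ in dose and time. The count of zinc transporters and metallothioneins called outside the chosen genes was 0 for A485 and 1 with DMSO and NT pooled. For IHK-44 it was 2, and 5 with pooled controls, 1 with library sizes alone and 1 with limma; for dCBP it was 3, and 6, 5 and 5. Leaving out 1 library gave 0 to 2 for IHK-44 and 0 to 6 for dCBP. For time dependence the count was 1 for each of dCBP and IHK-44 and 0 with DMSO alone as control, and leaving out 1 library gave 0 to 4 and 0 to 2. Of 20 zinc genes with a mean of 1 CPM or more, those at least 2-fold lower in a treated library numbered 1, and 2 by TPM and 4 at 1.5-fold. The 1 gene was SLC30A1, which was chosen with its values known. Those at least 2-fold higher numbered 2, and 1 by TPM and 6 at 1.5-fold. No share over all genes is set beside these counts, so nothing is read from them. Over all genes, calls against DMSO for A485 were 36, with 385 by DESeq2, 871 with pooled controls and 0 to 257 with a library left out. Pooled controls gave 5344 for dCBP (3137) and 4605 for IHK-44 (2247). Without 1 library these 2 counts ran down to 118 and 125, and time dependence gave 225 to 2461 for dCBP (1202), 505 to 1810 for IHK-44 (1312) and 0 to 660 for A485 (1). Between compounds, A485 against dCBP had 96, with 521 by DESeq2 and 186 by library size; A485 against IHK-44 had 117 and 424 by DESeq2; A485 against JQAD had 651, and 1108 and 997. With library sizes alone the split of lower and higher calls moved for dCBP against DMSO from 1567 and 1570 to 1101 and 2555, for IHK-44 from 1221 and 1026 to 963 and 1929, and against JQAD from 2180 and 2500 to 1583 and 3981 for dCBP, from 2131 and 2177 to 1599 and 3779 for IHK-44 and from 226 and 425 to 215 and 782 for A485. For time dependence it moved from 849 and 353 to 709 and 629 for dCBP and from 1029 and 283 to 807 and 479 for IHK-44. For dose of A485, 117 genes were called with the block, 67 by library size and 2 with no replicate block; for dose of IHK-44, 14 and 0 with no replicate block. With DMSO alone as control, time dependence called 0 genes for every compound. No direction among these results reversed in a called value. The labels carry no replicate numbers, so the only block was that of dose pairs. The causes were not tested.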

Other observations

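Several genes of the metal and oxidative stress list were above DMSO in A485 at 6 h, most of all at 100 nM. SRXN1, which restores oxidised peroxiredoxins, held 49.2 CPM in DMSO at 6 h, 77.2 in A485 at 100 nM and 60.4 at 1000 nM, 59.8 and 53.0 in dCBP, and 42.4 and 46.3 in IHK-44. SLC7A11, the cystine importer, held 18.3 CPM in DMSO at 6 h, 43.0 and 19.8 in A485, 4.04 and 7.82 in dCBP, and 6.91 and 6.38 in IHK-44. HMOX1, heme oxygenase, held 7.15 CPM in DMSO at 6 h and 12.7 and 7.47 in A485. SRXN1, SLC7A11 and HMOX1 were named after their values were seen. For A485, 0 of the 10 genes of the list were called by edgeR against DMSO (0.271% of all genes), with 0 at an unadjusted p under 0.05. For time dependence of A485, 0 of the 10 were called (0.00754% of all genes), with 5 at an unadjusted p under 0.05. For dCBP, 3 of 10 rose against DMSO (23.7% of all genes were called), the heat shock genes HSPA1A, HSPA1B and DNAJB1, the first and last named after their values were seen. HSPA1B rose by 1.05 ± 0.29 on the log2 scale (adjusted p = 0.019), with 81.8 CPM in DMSO at 6 h and 295 and 258 in dCBP, a call lost without the DMSO library of 6 h.

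Glucocorticoids also induce metallothionein genes. Their receptor NR3C1 was low in dCBP and IHK-44, and a link to the metallothionein levels was not tested. The stress, glucocorticoid, copper and iron lists were chosen with earlier results of these data known, so their counts are a description. Of 6 glucocorticoid genes listed 5 were tested, and 4 fell for dCBP (23.7% of all genes called) and 4 for IHK-44 (16.9%): NR3C1, KLF9, TSC22D3 and PER1, the last outside the naming rule. The other gene tested, FKBP5, was above DMSO in CPM in all 8 of these libraries, at 0.27 ± 0.12 for dCBP and 0.22 ± 0.12 for IHK-44, and was not called. For A485 against DMSO, 0 of 5 were called (0.271% of all genes), with a median log2 change of -0.71 and 3 at an unadjusted p under 0.05. KLF9 and PER1 were called lower in A485 against JQAD (4.91% of all genes called). NR3C1 fell by 1.58 ± 0.33 on the log2 scale for dCBP (adjusted p = 0.0062) and by 1.42 ± 0.33 for IHK-44 (0.013). It held 115 CPM in DMSO at 6 h, 22.4 and 33.1 in dCBP, 38.8 and 29.0 in IHK-44, and 116 and 61.0 in A485. KLF9 fell by 1.21 ± 0.19 and 1.19 ± 0.19. TSC22D3 fell by 0.94 ± 0.24 and 0.98 ± 0.24. Both NR3C1 calls and the TSC22D3 call of dCBP were lost without the DMSO library of 6 h, and the TSC22D3 call of IHK-44 without any 1 of 3 libraries. Among 8 copper genes, 1 was called for dCBP (23.7% of all genes) and 2 for IHK-44 (16.9%). The transporter SLC31A2 fell by 0.85 ± 0.16 for dCBP and 0.78 ± 0.16 for IHK-44, the latter call lost without either DMSO library. COX17, named after its value was seen, rose for IHK-44. Among 8 iron genes, 0 were called for dCBP (23.7% of all genes) and 1 for IHK-44 (16.9%). That was the exporter SLC40A1, which rose by 1.07 ± 0.36 for IHK-44 (edgeR adjusted p = 0.048), a call lost without any 1 of 12 libraries.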
